A study of Mus musculus with 40 samples.

Results

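The Janus kinase genes Jak1, Jak2, Jak3 and Tyk2 were followed through whole-blood mRNA of 40 mice. They were taken by gene name and are 4 of the 54532 genes measured. The mice were females 7 weeks old. Those given pristane were first pretreated for 3 days with the polyamine spermine or with PBS (buffered saline). Pristane is a hydrocarbon oil used to bring on systemic lupus erythematosus in mice. Blood was drawn from the orbital venous plexus. Mice labelled Ifnar1-/-, which by the label lack the type I interferon receptor chain IFNAR1, were bled uninduced (3 mice) or on day 4 or day 6 of pristane after PBS (5 mice a day). Ifnar1+/+ mice were bled on day 4 or day 6 after spermine (6 mice a day), uninduced (3 mice), or on day 4 or day 6 after PBS (6 mice a day). The labels name no pretreatment for the uninduced mice, so pristane and PBS cannot be told apart where a group is set against them. The series title names JAK1 as a target of spermine, and the comparisons below ask at what level the 4 kinase mRNAs stood, and whether they differed with pristane, the Ifnar1 label or spermine.

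Janus kinases are cytoplasmic tyrosine kinases that sit on the inner tails of cytokine receptors. When a cytokine draws receptor chains together, the kinases phosphorylate each other, the receptor and the STAT transcription factors, which then move to the nucleus. JAK1 and TYK2 serve the type I interferon receptor, and JAK1 and JAK2 the interferon gamma receptor. JAK2 serves the receptors for erythropoietin, thrombopoietin and granulocyte-macrophage colony-stimulating factor, and JAK3 binds the common gamma chain shared by several lymphocyte cytokine receptors. SOCS proteins and tyrosine phosphatases switch the pathway off. Kinase activity is regulated on the protein, which mRNA levels do not measure.

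On GRCm38, Jak1 (ENSMUSG00000028530) lies at chr4:101152367-101265282 on the minus strand and Jak2 (ENSMUSG00000024789) at chr19:29251828-29313080 on the plus strand. Jak3 (ENSMUSG00000031805) lies at chr8:71676296-71690575 on the plus strand and Tyk2 (ENSMUSG00000032175) at chr9:21104068-21131243 on the minus strand. Each has 25 exons in its longest principal transcript in GENCODE M21, and the merged exons used for length span 7227, 5030, 5352 and 6865 bases for Jak1, Jak2, Jak3 and Tyk2. Jak3 shares 404 exon bases with Insl3, a gene for a relaxin-family hormone on the same strand, which was listed at 0 to 8.44 FPKM in single mice, so some reads of the shared bases may be counted for either gene. Tyk2 shares 554 exon bases with the antisense gene 1700084C06Rik (0 to 0.241 FPKM) and Jak1 shares 4 with Raver2 (0.0326 to 0.607 FPKM). No strand marking is stated for the libraries.

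The sequence before each start site is shown as a description, and its part in the levels of the kinases was not tested. The sequences are from RefSeq on GRCm38.p6, 5′ to 3′ on the gene's strand, and are cut to bases outside any exon: chr4:101265283-101265473 for Jak1 (191 bases, minus strand), chr19:29251553-29251802 for Jak2 (250 bases, plus strand), chr8:71676133-71676295 for Jak3 (163 bases, plus strand) and chr9:21131276-21131525 for Tyk2 (250 bases, minus strand). Capitals mark matches to GGGCGG, read on either strand, and to CCAAT and TGACGTCA.
Jak1: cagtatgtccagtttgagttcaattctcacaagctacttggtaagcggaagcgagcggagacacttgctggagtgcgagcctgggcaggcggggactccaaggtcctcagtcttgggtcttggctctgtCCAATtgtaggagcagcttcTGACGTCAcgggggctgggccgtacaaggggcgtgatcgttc
Jak2: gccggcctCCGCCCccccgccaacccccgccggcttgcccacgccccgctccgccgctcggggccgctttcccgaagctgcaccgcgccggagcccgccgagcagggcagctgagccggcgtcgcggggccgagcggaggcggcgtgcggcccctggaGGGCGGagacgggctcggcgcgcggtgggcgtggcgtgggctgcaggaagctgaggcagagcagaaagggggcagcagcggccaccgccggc
Jak3: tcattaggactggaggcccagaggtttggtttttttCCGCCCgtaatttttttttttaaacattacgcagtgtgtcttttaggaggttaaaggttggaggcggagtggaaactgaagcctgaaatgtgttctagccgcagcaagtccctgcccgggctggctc
Tyk2: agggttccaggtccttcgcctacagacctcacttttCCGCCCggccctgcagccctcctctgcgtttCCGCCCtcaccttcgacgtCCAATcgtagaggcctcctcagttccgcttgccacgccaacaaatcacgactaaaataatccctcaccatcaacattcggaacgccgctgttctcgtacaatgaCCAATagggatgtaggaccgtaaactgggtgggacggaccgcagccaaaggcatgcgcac
Motifs were counted in the full 250 bases before the RefSeq start, on both strands, in these 4 genes and in 32851 promoters of that length. The STAT-binding pattern TTCNNNGAA was in 0 of 4, against 7.02% of all promoters, and the interferon response pattern (GAAA, any 2 bases, GAAA) in 0 of 4, against 2.98% of all promoters and 7 of 18 interferon-stimulated genes searched. The GC box GGGCGG was in 4 of 4, against 32.7% of all promoters. For Jak1 that match lies 49 to 44 bases before the start, outside the bases shown. CCAAT was in Jak1 and Tyk2 (33.8% of all promoters), the cyclic AMP response element TGACGTCA in Jak1 alone of the 4 (1.55%), and TATAAA in 0 of 4 (12.4%). The patterns do not overlap each other in the sequences shown. The same 250 bases were 61.2%, 80.8%, 52.4% and 57.2% G or C in Jak1, Jak2, Jak3 and Tyk2, against a median of 52.4% over all promoters, and held 19, 37, 8 and 19 CpG dinucleotides, against a median of 6. The Jak2 stretch was richer in G and C than 99.0% of promoters. A match is a run of letters and not a measured site.

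The libraries held 9156431 to 14058050 fragments, of which hemoglobin genes took 26.5% to 62.2%, and 3579225 to 9366185 fragments stayed without them. Blood markers were present as labelled: all 13 neutrophil, 11 T cell, 9 B cell and 10 erythroid marker genes passed the expression filter of 1 FPKM or more in at least 3 libraries. Ifnar1 itself stood at 16.4 ± 2.36, 20.6 ± 1.87 and 16.5 ± 1.84 FPKM (mean ± SD) in uninduced, day 4 and day 6 mice labelled Ifnar1-/- (n = 3, 5 and 5), and at 9.14 ± 1.09, 8.25 ± 0.764 and 8.07 ± 0.998 FPKM in the matching Ifnar1+/+ groups (n = 3, 6 and 6). This whole-gene level was thus higher under the knockout label, and no loss of exons can be read from it, so the label is kept as a label. In 7 Ifnar1+/+ libraries the mitochondrial share of fragments outside hemoglobin was under 1.2%. They were mouse 2 of spermine day 6, mouse 3 of the uninduced group, mice 1, 3 and 4 of PBS day 4, and mice 4 and 6 of PBS day 6. No library of the Ifnar1-/- label was among them, and values without these 7 stand beside several of the results.

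Jak1, which pairs with each of the other family members in one receptor or another, was the most abundant of the 4, at 39.5 ± 5.31 FPKM over 40 mice (mean ± SD, range 25.4 to 49.3). FPKM counts fragments per unit of exon length and of a scaling of each library, so it allows levels to be set side by side between genes. Here that scaling set the typical gene equal between libraries (median of ratios) and was not the total of the library. In mice labelled Ifnar1-/-, Jak1 read 41.2, 39.8 and 37.3 FPKM uninduced, then 38.7, 36.0, 35.2, 35.7 and 39.7 FPKM on day 4 and 33.0, 40.2, 38.9, 38.8 and 40.01 FPKM on day 6. After spermine, Ifnar1+/+ mice ran from 29.7 through a median of 39.8 to 46.0 FPKM on day 4 and from 25.4 through 37.6 to 43.8 FPKM on day 6. Ifnar1+/+ mice without spermine read 43.3, 35.6 and 48.9 FPKM uninduced, and ran from 32.9 through a median of 39.99 to 49.3 FPKM on day 4 and from 37.9 through 41.6 to 48.8 FPKM on day 6. All 8 groups overlapped each other, and the highest group mean was 1.17 times the lowest. The lowest and the highest Jak1 value over all mice both came from libraries of low mitochondrial share.

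Jak2, the kinase of the erythropoietin and thrombopoietin receptors, came next at 14.1 ± 1.86 FPKM (range 10.3 to 18.7). Mice labelled Ifnar1-/- had 15.0, 13.2 and 12.2 FPKM uninduced, 15.0, 12.6, 12.8, 13.1 and 14.6 FPKM on day 4, and 12.1, 17.05, 16.6, 13.9 and 14.7 FPKM on day 6. After spermine it ran from 11.3 through a median of 14.1 to 16.0 FPKM on day 4 and from 10.3 through 14.3 to 15.3 FPKM on day 6. Ifnar1+/+ mice without spermine read 12.3, 13.3 and 18.7 FPKM uninduced, and ran from 11.8 through a median of 14.2 to 17.3 FPKM on day 4 and from 13.2 through 14.2 to 18.04 FPKM on day 6. Jak2 was the steadiest of the 4 across groups: the highest group mean was 1.11 times the lowest, and every pair of groups overlapped.

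Jak3, the partner of the common gamma chain in lymphocytes, came after Jak2 at 9.99 ± 1.90 FPKM (range 5.68 to 14.2). Mice labelled Ifnar1-/- had 8.48, 10.46 and 10.2 FPKM uninduced, 11.7, 9.96, 13.0, 13.0 and 10.6 FPKM on day 4, and 10.7, 8.66, 11.2, 10.485 and 11.1 FPKM on day 6. After spermine it ran from 5.68 through a median of 10.8 to 13.2 FPKM on day 4 and from 8.36 through 10.7 to 14.2 FPKM on day 6. Ifnar1+/+ mice without spermine read 9.65, 6.83 and 9.52 FPKM uninduced, and ran from 7.96 through a median of 8.90 to 12.6 FPKM on day 4 and from 6.36 through 8.77 to 9.75 FPKM on day 6. Jak3 varied most of the 4: the highest mouse was 2.50 times the lowest and the highest group mean 1.38 times the lowest. Its group means, from the lowest, were 8.46 ± 1.21 (PBS day 6), 8.67 ± 1.59 (Ifnar1+/+ uninduced) and 9.30 ± 1.70 FPKM (PBS day 4). The 5 groups that were labelled Ifnar1-/- or received spermine stood above these, at 9.73 ± 1.08 to 11.6 ± 1.39 FPKM. This split describes the order of the means and was not tested. The gap at its edge, from 9.30 to 9.73 FPKM, was smaller than the SD of either group. Mice 1, 3 and 4 of PBS day 4, libraries of low mitochondrial share, had lower Jak3 than every other mouse of that group. Whether the order of the means holds without the libraries of low mitochondrial share was not tested.

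Tyk2, the kinase bound to IFNAR1 and to the shared chain of the interleukin 12 and 23 receptors, was lowest at 5.53 ± 0.805 FPKM (range 3.28 to 6.96). Under the Ifnar1-/- label it read 5.51, 5.35 and 5.28 FPKM uninduced, 5.81, 5.78, 6.54, 6.34 and 5.77 FPKM on day 4, and 4.38, 4.64, 5.15, 4.36 and 5.83 FPKM on day 6. After spermine it ran from 3.28 through a median of 5.76 to 6.79 FPKM on day 4 and from 4.42 through 5.73 to 6.96 FPKM on day 6. Ifnar1+/+ mice without spermine read 6.17, 4.62 and 5.97 FPKM uninduced, and ran from 4.82 through a median of 6.17 to 6.49 FPKM on day 4 and from 4.26 through 5.41 to 5.86 FPKM on day 6. The 5 day 4 mice labelled Ifnar1-/- all lay above the 3 uninduced ones of that label, and 4 of the 5 day 6 mice lay below all 5 day 4 mice. When the 8 groups were put in order of their means, every neighbouring pair differed by less than the smaller of its SDs for Jak1, Jak2 and Jak3. For Tyk2 the exceptions were the neighbours of the uninduced group labelled Ifnar1-/-, whose gaps of 0.145 and 0.205 FPKM stood beside that group's SD of 0.113 FPKM.

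**Figure D1:**
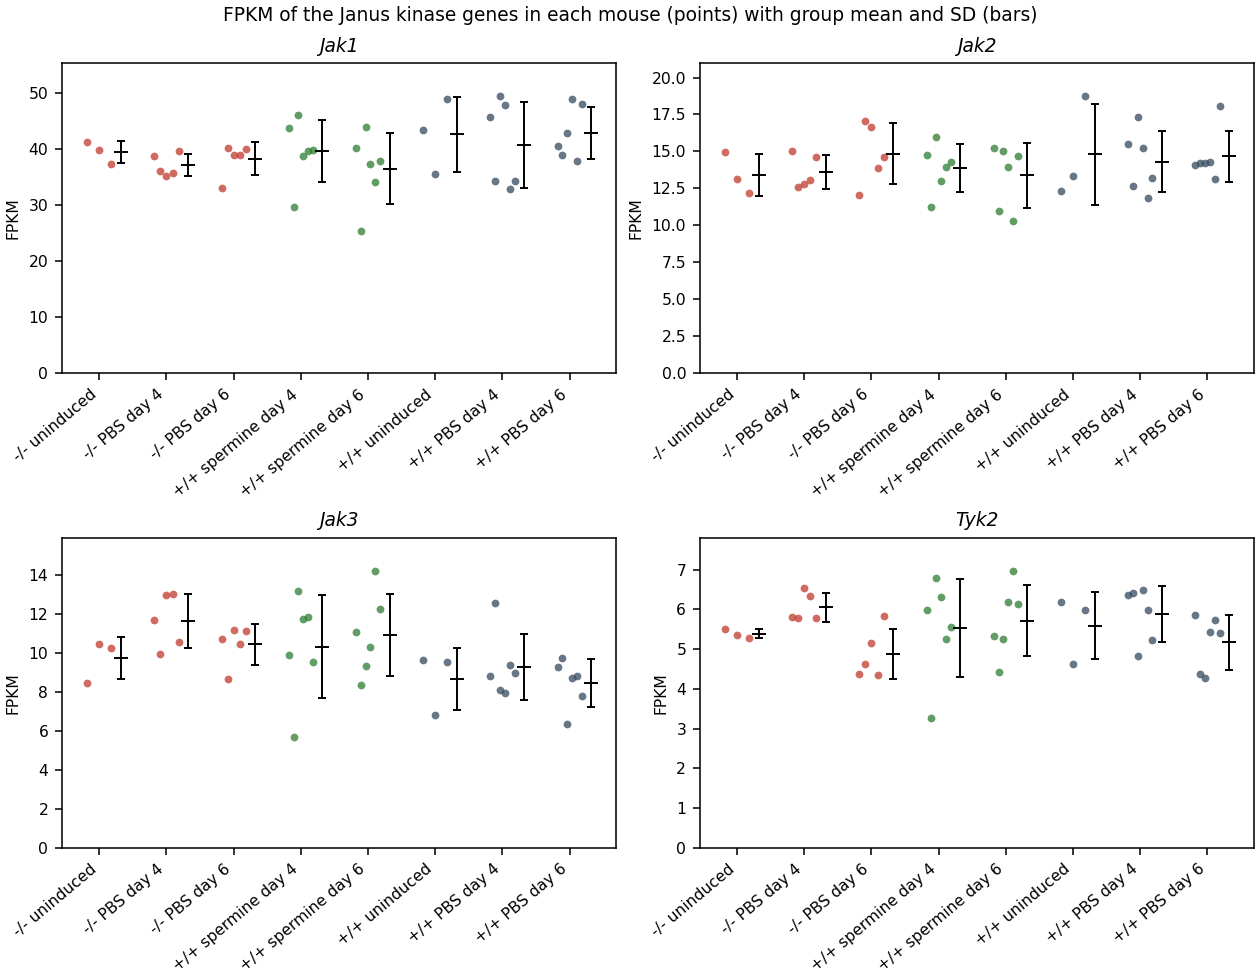
FPKM (vertical axis) of Jak1, Jak2, Jak3 and Tyk2 in each of 40 mice, by group, with 1 point a mouse and the group mean ± SD. The groups overlap in nearly every pair, Jak1 lies between 25.4 and 49.3 FPKM, and Tyk2 lies between 3.28 and 6.96 FPKM.

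The order Jak1, Jak2, Jak3, Tyk2 held in nearly every mouse. Jak1 exceeded Jak2 in 40 of 40 mice (2.32 to 3.51 times, median 2.77) and Jak3 exceeded Tyk2 in 40 of 40 (1.23 to 2.45 times, median 1.804). Jak2 exceeded Jak3 in 38 of 40 (median 1.38 times). The exceptions were mouse 3 of day 4 labelled Ifnar1-/- and mouse 5 of spermine day 6. By mean FPKM among all genes tested, Jak1 stood at the 95.5th percentile, Jak2 at the 88th, Jak3 at the 83.5th and Tyk2 at the 70.9th. These are whole-blood levels, and in bulk blood fewer cells of a type and less RNA per cell cannot be told apart.

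The values rest on 1452 to 7591 fragments a mouse for Jak1, 369 to 1856 for Jak2, 228 to 1681 for Jak3 and 183 to 994 for Tyk2. The largest counting error in a single mouse was 2.62%, 5.21%, 6.62% and 7.39% of the value for Jak1, Jak2, Jak3 and Tyk2, which covers the counting of reads only. The spread between mice over all 40 was larger, with coefficients of variation of 13.5%, 13.2%, 19.1% and 14.5%. On the deposited scale, Jak1, Jak2 and Tyk2 moved little between groups against tested genes of all levels, while Jak3 stood nearer the median gene. The span from the lowest to the highest group mean was 0.24, 0.15, 0.42 and 0.27 on the log2 scale for Jak1, Jak2, Jak3 and Tyk2, where the median gene spanned 0.51. For Jak2, 0.71% of genes had a smaller span, and for Jak1, Tyk2 and Jak3 the shares were 7.21%, 11.4% and 37.2%.

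As parts of the summed FPKM of the 4 genes, Jak1 made up 57.0%, Jak2 20.4%, Jak3 14.6% and Tyk2 8.03% on average over 40 mice. The sum itself averaged 66.5 to 71.6 FPKM by group. On day 4, Jak3 made up 17.0% ± 2.02 of the sum in mice labelled Ifnar1-/- and 13.5% ± 3.53 in Ifnar1+/+ PBS mice (SD, n = 5 and 6). Mice 1, 3 and 4 of that PBS group, the libraries of low mitochondrial share, all had lower Jak3 shares than the other PBS mice. Those other PBS mice ran from 14.6% to 19.1%, beside 14.9% to 19.2% under the Ifnar1-/- label. The part of the low-mitochondrial libraries in this difference was not tested. On day 6 Jak3 made up 16.6% ± 3.01 after spermine and 11.97% ± 2.09 after PBS (SD, n = 6 each). The Jak1 part was 55.9% ± 1.41 in day 6 mice labelled Ifnar1-/- and 60.1% ± 2.63 in day 6 Ifnar1+/+ PBS mice (SD, n = 5 and 6). The shares of 1 mouse add up to a whole, so a higher Jak3 share goes with a lower share elsewhere, and they are given as a description.

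Across the 40 mice some pairs of kinases moved together more closely than others. Jak1 and Jak2 rose and fell together with a Pearson r of 0.78 on log2(FPKM + 1), and 0.80 after the group means were taken out. Jak3 and Tyk2 did so with an r of 0.64, and 0.74 within groups. The other pairs were looser: 0.29 for Jak1 and Tyk2, 0.08 for Jak2 and Tyk2, -0.08 for Jak1 and Jak3, and -0.11 for Jak2 and Jak3. Within groups these were 0.42, 0.18, 0.17 and -0.01. The points are 40 libraries that share depth, scaling and cell makeup, so these values describe the libraries. Mice at the ends of the range were often the same: spermine day 4 mouse 2 had the lowest Jak3 and Tyk2, and spermine day 6 mouse 5 the highest Jak3 and Tyk2 and the lowest Jak2. Libraries of low mitochondrial share lay at the ends too. Ifnar1+/+ PBS day 4 mouse 3 had the highest Jak1 (49.3 FPKM) and spermine day 6 mouse 2 the lowest Jak1 (25.4 FPKM). Uninduced Ifnar1+/+ mouse 3 had the highest Jak2 (18.7 FPKM). The part of these libraries in the r of Jak1 and Jak2 was not tested.

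**Figure D2:**
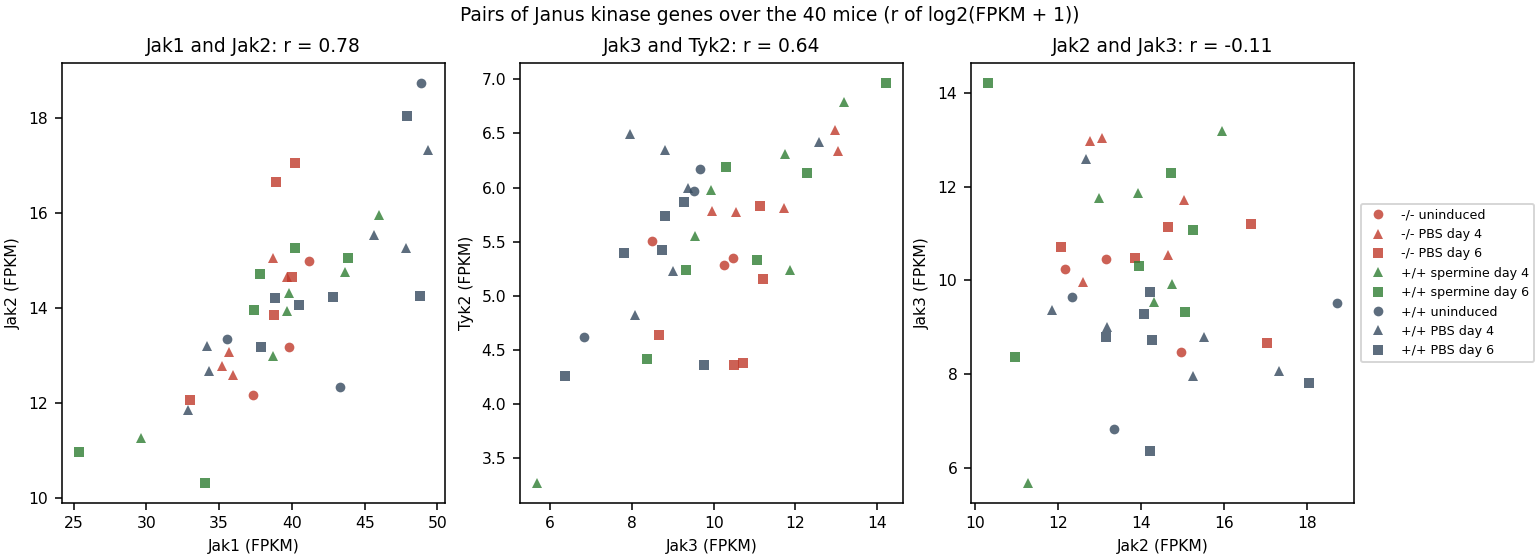
FPKM of 1 kinase gene against another in 40 mice, with 1 point a mouse, coloured by genotype label and treatment and shaped by day. Jak1 with Jak2 (r = 0.78) and Jak3 with Tyk2 (r = 0.64) lie along a line, while Jak2 with Jak3 (r = -0.11) forms a round cloud.

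The genes whose pattern was most like each kinase were found by the same Pearson r over 40 mice among 3456 genes with a mean of at least 5 FPKM. For Jak1 they were Stk4, a kinase of the Hippo pathway (0.89), Erbin (0.89), Klhl24 (0.88) and the nuclear import receptor gene Tnpo1 (0.88). For Jak2 they were Jak1 itself (0.78), the integrin chain gene Itgb1 (0.78), Wapl, which releases cohesin from chromosomes (0.77), and Stk4 (0.77). For Jak3 they were Arhgap30 (0.73), the polarity kinase gene Mark2 (0.72), the lipid transporter gene Abca7 (0.72) and Arhgap27 (0.70). For Tyk2 they were the repressor gene Cic (0.78), Phf12 (0.77), Pcnx3 (0.76) and the chromatin remodeller subunit gene Smarcc2 (0.75). Jak2 was not among the 4 genes nearest Jak1, nor were Jak3 and Tyk2 among those nearest each other. The kinases were also set against the mean log2(FPKM + 1) of each list of cell markers. Jak1 had its strongest r with eosinophil and basophil markers (-0.60) and Jak2 with T cell markers (-0.40). For Jak3 it was with B cell markers (-0.42) and for Tyk2 with T cell markers (-0.48). None of the 4 followed the marker mean of one lineage closely.

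Pristane, with PBS before it, left the 4 mRNAs within their spread in Ifnar1+/+ mice. A change is the difference of group means of log2(FPKM + 1) ± SE from 1 limma fit of all 8 groups, and the threshold for a call was an adjusted p (Benjamini-Hochberg, over 11829 genes) below 0.05. On day 4 against uninduced mice (6 and 3 mice), the changes were -0.07 ± 0.15 for Jak1, -0.04 ± 0.14 for Jak2, 0.09 ± 0.17 for Jak3 and 0.07 ± 0.13 for Tyk2. None of the 4 was called, where 2.1% of all genes tested were. On day 6 (6 and 3 mice) they were 0.01 ± 0.15 for Jak1, 0.00 ± 0.14 for Jak2, -0.03 ± 0.17 for Jak3 and -0.09 ± 0.13 for Tyk2. None was called, where 8.17% of genes were. For day 6 against day 4 in PBS mice (6 each), the largest change was that of Tyk2, at -0.16 ± 0.11 (limma, adjusted p = 0.503), beside 0.08 ± 0.12 for Jak1, 0.04 ± 0.11 for Jak2 and -0.12 ± 0.14 for Jak3. None of the 4 was called, where 0.473% of genes were.

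Under the Ifnar1-/- label, the largest changes on day 4 against uninduced mice (5 and 3 mice) were those of Jak3 and Tyk2, beside -0.09 ± 0.15 for Jak1 and 0.02 ± 0.14 for Jak2. Jak3 averaged 11.6 ± 1.39 FPKM on day 4 and 9.73 ± 1.08 uninduced, a change of 0.24 ± 0.18 (limma, adjusted p = 0.558). Tyk2 averaged 6.05 ± 0.362 FPKM on day 4 and 5.38 ± 0.113 uninduced, a change of 0.14 ± 0.14 (limma, adjusted p = 0.689). Tyk2 was the only 1 of the 4 whose groups did not overlap in FPKM, where 23.1% of all genes did not, and 8.12% of all genes but none of the 4 were called. In the other 11 comparisons none of the 4 had groups that did not overlap, where 0.998% to 20.8% of genes did not. On day 6 (5 and 3 mice) the changes were -0.05 ± 0.15 for Jak1, 0.13 ± 0.14 for Jak2, 0.09 ± 0.18 for Jak3 and -0.13 ± 0.14 for Tyk2. None was called, where 11.8% of genes were. Day 6 against day 4 (5 each) gave the lowest change of the 48, that of Tyk2, which averaged 4.87 ± 0.624 FPKM on day 6 and 6.05 ± 0.362 on day 4. Its change was -0.27 ± 0.12 with a 95% interval of -0.51 to -0.02 (limma, adjusted p = 0.227). For Jak1, Jak2 and Jak3 the changes were 0.04 ± 0.13, 0.11 ± 0.12 and -0.14 ± 0.15. None of the 4 was called, where 6.21% of all genes were.

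Between genotypes, Jak3 gave the largest differences. On day 4 it averaged 11.6 ± 1.39 FPKM in mice labelled Ifnar1-/- and 9.30 ± 1.70 FPKM in Ifnar1+/+ mice (SD, n = 5 and 6). The mice labelled Ifnar1-/- ran from 9.96 to 13.0 FPKM, and 5 of the 6 Ifnar1+/+ mice ran from 7.96 to 9.37 FPKM with the other at 12.6. The difference was 0.30 ± 0.15 with a 95% interval of 0.01 to 0.60 (limma, adjusted p = 0.146), and 0.17 (adjusted p = 0.708) without the libraries of low mitochondrial share. None of the 4 was called, where 18.5% of all genes were. Jak1, Jak2 and Tyk2 differed by -0.11 ± 0.13, -0.06 ± 0.12 and 0.04 ± 0.11. The median neutrophil marker sum was 7929 FPKM (6428 to 8128) in those mice labelled Ifnar1-/- and 1652 FPKM (1055 to 4065) in the Ifnar1+/+ mice, and its part in the Jak3 difference was not tested. Insl3, which overlaps Jak3, differed in the same direction by 0.52 ± 0.31 (limma, adjusted p = 0.263).

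On day 6 the Jak3 difference between genotypes was 0.28 ± 0.15 with an interval of -0.01 to 0.58 (limma, adjusted p = 0.350), from 10.4 ± 1.04 FPKM in mice labelled Ifnar1-/- and 8.46 ± 1.21 FPKM in Ifnar1+/+ mice (SD, n = 5 and 6). Jak1, Jak2 and Tyk2 differed by -0.16 ± 0.13, 0.01 ± 0.12 and -0.07 ± 0.11. None was called, where 3.2% of genes were, and Insl3 differed by 0.80 ± 0.31 (limma, adjusted p = 0.178). In uninduced mice (3 each) the genotypes differed by -0.10 ± 0.17 for Jak1, -0.11 ± 0.16 for Jak2, 0.16 ± 0.20 for Jak3 and -0.04 ± 0.15 for Tyk2. None was called, where 0.406% of genes were.

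On day 4 Jak1, the kinase named in the series title, stood within the spread of the PBS mice after spermine. It averaged 39.6 ± 5.59 FPKM after spermine and 40.7 ± 7.67 FPKM after PBS (SD, n = 6 each), a change of -0.03 ± 0.12 with a 95% interval of -0.27 to 0.21 (limma, adjusted p = 0.934). The changes of Jak2, Jak3 and Tyk2 were -0.04 ± 0.11, 0.11 ± 0.14 and -0.10 ± 0.11. None was called, where 9.13% of all genes were. With the low-mitochondrial libraries left out, the Jak1 change stood at 0.21 (limma, adjusted p = 0.367).

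On day 6 after spermine, as deposited, Jak1 leaned lower and Jak3 higher, and neither was called. Jak3 averaged 10.9 ± 2.11 FPKM after spermine and 8.46 ± 1.21 FPKM after PBS (SD, n = 6 each), and 4 of the 6 spermine mice lay above all 6 PBS mice. This was the largest of the 48 changes, at 0.33 ± 0.14 with a 95% interval of 0.05 to 0.61 (limma, adjusted p = 0.227). Leaving out single mice gave 0.25 to 0.39. Jak1 averaged 36.4 ± 6.31 FPKM after spermine and 42.8 ± 4.63 FPKM after PBS, a change of -0.24 ± 0.12 (limma, adjusted p = 0.315), and of -0.05 without the libraries of low mitochondrial share. With each library set to a fixed total, Jak1 turned to 0.17 without hemoglobin and 0.39 with it, the same sign as Jak3. Jak2 had a change of -0.13 ± 0.11 and Tyk2 one of 0.12 ± 0.11. None of the 4 was called, where 0.0423% of all genes were. For Insl3 the change was 0.42 ± 0.30 (limma, adjusted p = 0.504), and the median neutrophil marker sum was 5970 FPKM after spermine and 4683 FPKM after PBS, whose part in the Jak3 change was not tested. Day 6 against day 4 within spermine mice (6 each) gave -0.12 ± 0.12 for Jak1, -0.06 ± 0.11 for Jak2, 0.10 ± 0.14 for Jak3 and 0.06 ± 0.11 for Tyk2, with none called, where 0.617% of genes were.

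Over all 12 comparisons, limma called none of the 48 kinase values and voom on recovered reads called none. Unadjusted p was under 0.05 for 3 of 48 kinase values (6.25%), where it was for 9.13% to 31.3% of all genes in the 12 comparisons. They were 0.024 for Jak3 after spermine on day 6, 0.0438 for Jak3 between genotypes on day 4 and 0.0317 for Tyk2 in day 6 against day 4 under the Ifnar1-/- label. The changes ran from -0.27 to 0.33, the smallest adjusted p was 0.146, and SEs were 0.11 to 0.20. For 45 of the 48 the 95% interval stayed within a 1.5-fold change of FPKM + 1 either way. The 3 that reached further were all of Jak3, with upper bounds of 0.59 (day 4 against uninduced, labelled Ifnar1-/-), 0.60 (genotypes on day 4) and 0.61 (spermine on day 6).

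Differences between comparisons were tested in the same fit, and none of 16 kinase values was called (smallest adjusted p = 0.844). The spermine effect on day 6 minus that on day 4 was 0.21 ± 0.20 for Jak3, 0.21 ± 0.15 for Tyk2, -0.21 ± 0.17 for Jak1 and -0.09 ± 0.16 for Jak2, where 0.0169% of all genes were called. The genotype difference on day 6 minus that on day 4 was -0.02 ± 0.21 for Jak3 and -0.11 ± 0.16 for Tyk2, where 1.67% of genes were called. The day 4 change in mice labelled Ifnar1-/- minus that in Ifnar1+/+ mice was 0.14 ± 0.24 for Jak3, where 0.254% of genes were called, and for day 6 it was 0.12 ± 0.24, where 0.0254% were.

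**Figure D3:**
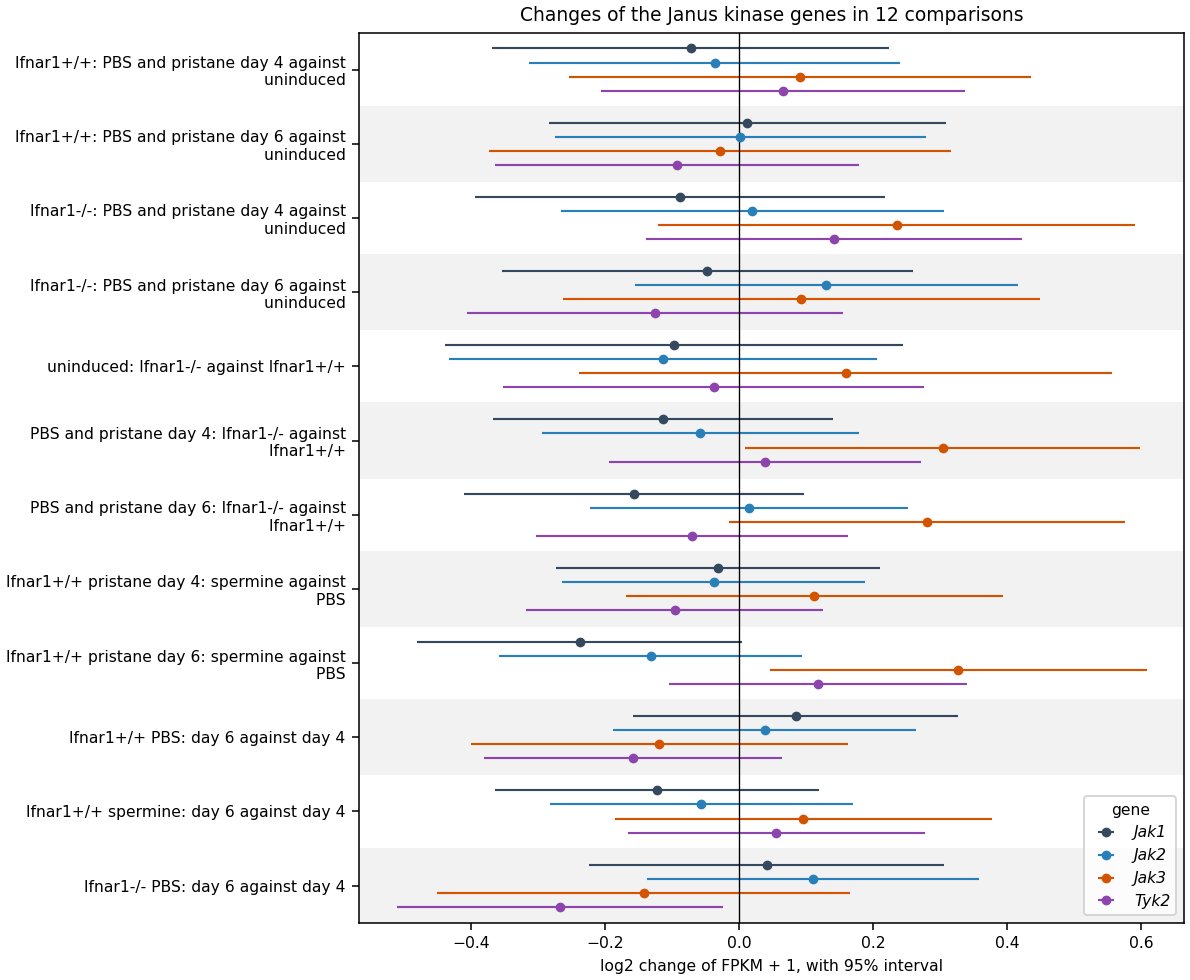
Log2 change of FPKM + 1 (horizontal axis) of the 4 kinase genes in 12 comparisons, each point with its 95% interval from limma and a vertical line at 0. No value is called, and the intervals that reach furthest to the right belong to Jak3, at upper bounds of 0.59, 0.60 and 0.61.

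In some comparisons the calls of the kinases depended on how the libraries were scaled. The deposited FPKM carry a median-of-ratios scaling, which sets the typical gene equal between libraries. With each library instead set to a fixed total without hemoglobin, the genotypes on day 4 differed by 0.57 ± 0.16 for Jak1, 0.60 ± 0.16 for Jak2, 0.93 ± 0.23 for Jak3 and 0.63 ± 0.18 for Tyk2, and all 4 were called (limma, adjusted p = 0.00491, 0.00282, 0.00141 and 0.00549). So were 58.3% of all genes, and the median of all genes was 0.46. Relative to that median, Jak1, Jak2, Jak3 and Tyk2 stood at 0.12, 0.14, 0.48 and 0.18, where as deposited they stood at -0.12, -0.06, 0.30 and 0.04 relative to the median of that scaling. Jak1 and Jak2 thus turned sign relative to the median. On log2(FPKM + 1), rescaling a library moves a gene of low level by less than one of high level. Spermine against PBS on day 4 likewise gave 0.71, 0.67, 0.79 and 0.54 with 70.5% of genes called and a median of 0.51, so that the kinases stood 0.20, 0.16, 0.28 and 0.03 above it. As deposited they stood at -0.045, -0.05, 0.10 and -0.11 relative to the median, so that all but Jak3 turned sign.

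Day 6 against day 4 in mice labelled Ifnar1-/- went the other way on the fixed total without hemoglobin, at -0.61, -0.52, -0.76 and -0.84 for Jak1, Jak2, Jak3 and Tyk2, all 4 called, with 59% of genes called and a median of -0.48. Relative to the median these were -0.13, -0.03, -0.28 and -0.35, and as deposited 0.08, 0.15, -0.10 and -0.23, so that Jak1 and Jak2 turned sign. For spermine on day 6 the 4 values were 0.17, 0.26, 0.70 and 0.46 around a median of 0.28, with none of the 4 and 2.93% of genes called. The genotype difference on day 6 minus that on day 4 was -0.78, -0.63, -0.71 and -0.75 around a median of -0.52, with all but Jak3 called, where 30.8% of genes were. Relative to the median Jak2 stood at -0.11 there and at 0.09 as deposited, while the other 3 stood below it on both scales. On this scale Jak3 stood furthest from the median in the genotype comparison on day 4, at 0.48, and in spermine against PBS on day 6, at 0.42. With hemoglobin in the total, the day 4 genotype differences were 0.90, 0.91, 1.24 and 0.92 around a median of 0.69, with all 4 kinases and 74.7% of genes called. Likewise all 4 were called for spermine on day 4, where 80.8% of genes were, for day 6 against day 4 under the Ifnar1-/- label, where 77.2% were, and for the difference of the genotype effects, where 63.5% were. For spermine on day 6, Jak3 (0.90) and Tyk2 (0.65) were called, where 31.5% of genes were. The erythroid marker sum moved with these comparisons: its median was 288100 FPKM on day 4 and 1100000 FPKM on day 6 in mice labelled Ifnar1-/-, 371700 FPKM after spermine on day 4, and 870000 FPKM after PBS on day 4 in Ifnar1+/+ mice. Its part was not tested.

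**Figure D4:**
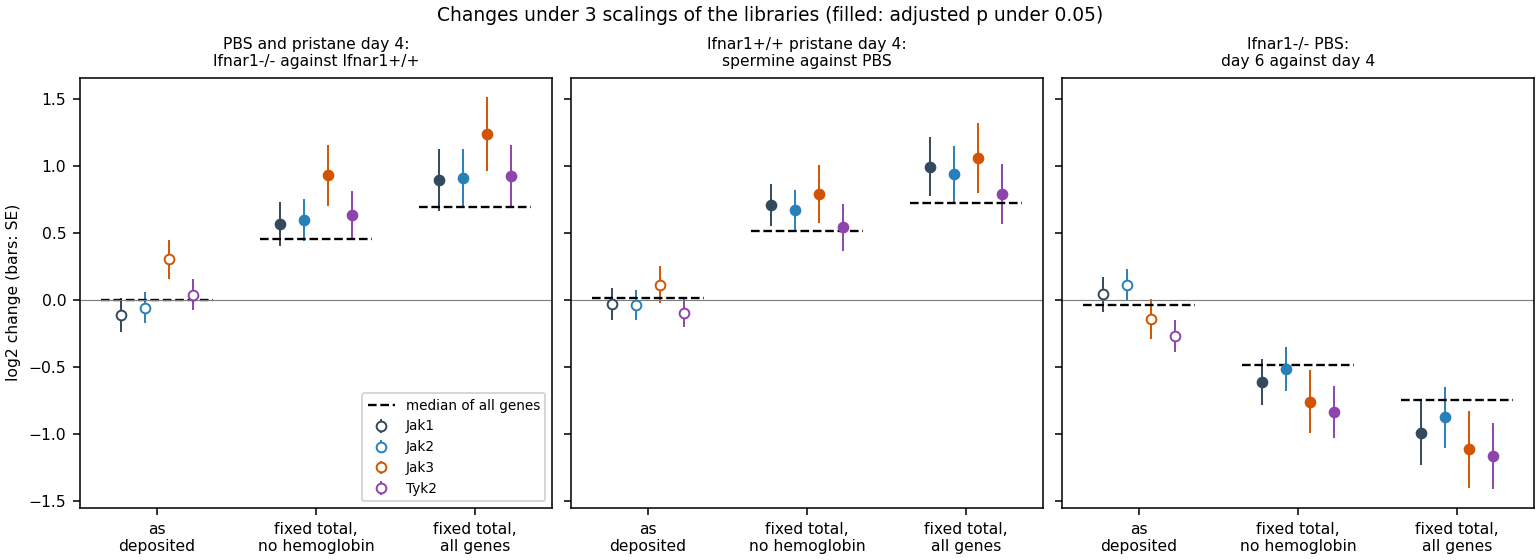
Log2 change ± SE (vertical axis) of the 4 kinase genes under 3 scalings of the libraries, in the genotypes on day 4, spermine against PBS on day 4, and day 6 against day 4 under the Ifnar1-/- label, with filled points for calls and dashed lines at the median of all genes. The kinases and the median shift in the same direction: in the genotypes on day 4 it stands at 0.46 and 0.69 under the fixed totals, and Jak3 stands above it at 0.93 and 1.24.

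Other genes of the pathway were called in day 4 blood of mice labelled Ifnar1-/-, though in most lists the larger part was not. Its genes were taken from lists by role, and the counts are of members that passed the expression filter. Between genotypes on day 4, where 18.5% of all genes were called, 7 of 11 receptor chains used by JAK1, 5 of 9 used by JAK2, 5 of 7 STAT, 4 of 6 SOCS and 6 of 6 phosphatase genes were not called. No test compared these lists with the kinases. Of 26 ligand genes, 5 passed and 7 were listed at 0 in every mouse. Osm, the gene of oncostatin M, a cytokine that signals through JAK1, averaged 3.80 FPKM on day 4 in mice labelled Ifnar1-/-, 1.33 FPKM in uninduced mice of that label and 1.49 FPKM in day 4 Ifnar1+/+ PBS mice. It rose by 1.04 ± 0.24 against uninduced mice (limma, adjusted p = 0.0024) and was higher than in Ifnar1+/+ mice by 1.01 ± 0.20 (adjusted p = 0.000338).

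Among receptor chains used by JAK2, 4 of 9 rose on day 4 in mice labelled Ifnar1-/- against uninduced ones, where 8.12% of all genes were called, and 0 fell. Csf2rb, the beta chain shared by the receptors for granulocyte-macrophage colony-stimulating factor, interleukin 3 and interleukin 5, averaged 24.0 ± 3.72 FPKM on day 4, against 5.63 FPKM uninduced, a change of 1.90 ± 0.18 (limma, adjusted p = 1.23e-09). Its near-identical neighbour Csf2rb2, with which it may share reads, changed by 1.84 ± 0.21 (adjusted p = 2.88e-08). Csf3r, the receptor of granulocyte colony-stimulating factor, averaged 161 ± 33.1 FPKM on day 4, against 55.7 FPKM uninduced, a change of 1.499 ± 0.22 (adjusted p = 5.47e-06). In the same group Csf2rb was 0.77 ± 0.15 above Ifnar1+/+ PBS mice, which averaged 13.7 ± 2.62 FPKM (adjusted p = 0.000351), and Csf3r 1.02 ± 0.18 above their 79.4 ± 18.8 FPKM (adjusted p = 0.000115). There 4 of 9 were higher and 0 lower, where 18.5% of all genes were called. Csf3r is itself a neutrophil marker, and all 13 neutrophil markers rose in both comparisons. Their part was not tested.

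Of the 11 chains used by JAK1, 4 rose and 1 fell in day 4 mice labelled Ifnar1-/- against uninduced ones, where 8.12% of all genes were called. Between genotypes 4 were higher and 0 lower than in Ifnar1+/+ PBS mice, where 18.5% of all genes were called. Ifngr1, the binding chain of the interferon gamma receptor, averaged 41.8 ± 6.32 FPKM in those mice and 18.7 ± 5.94 FPKM in Ifnar1+/+ PBS mice, a difference of 1.16 ± 0.16 (limma, adjusted p = 1.39e-06). Il4ra, the interleukin 4 receptor chain, averaged 29.4 FPKM and 20.5 FPKM in the same groups (0.50 ± 0.09, adjusted p = 0.000124). Ifnlr1, the chain specific to the interferon lambda receptor, averaged 2.46 FPKM and 1.02 FPKM (0.78 ± 0.13, adjusted p = 3.59e-05). Against uninduced mice of the same label, Il4ra changed by 0.61 ± 0.11 (adjusted p = 0.000108) and Ifnlr1 by 1.35 ± 0.16 (adjusted p = 5.2e-08).

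Il2rg, the common gamma chain that JAK3 binds, was called in none of the 12 comparisons, where 0.0423% to 18.5% of all genes were. Its changes ran from -0.30 to 0.33. It averaged 21.5 FPKM on day 4 in mice labelled Ifnar1-/- and 19.8 FPKM in Ifnar1+/+ PBS mice. Of the 3 chains used by TYK2, 2 were called higher under the Ifnar1-/- label between genotypes on day 4, where 18.5% of all genes were called. They were Ifnar1, the gene of the label, at 1.23 ± 0.10 (limma, adjusted p = 2.05e-10), and Il13ra1, a chain of the interleukin 13 receptor, which averaged 15.8 ± 2.46 FPKM and 7.07 ± 2.40 FPKM in these groups (1.09 ± 0.17, adjusted p = 8.84e-06). Il13ra1 was also 1.68 ± 0.20 above uninduced mice of that label (adjusted p = 9.19e-08).

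**Figure D5:**
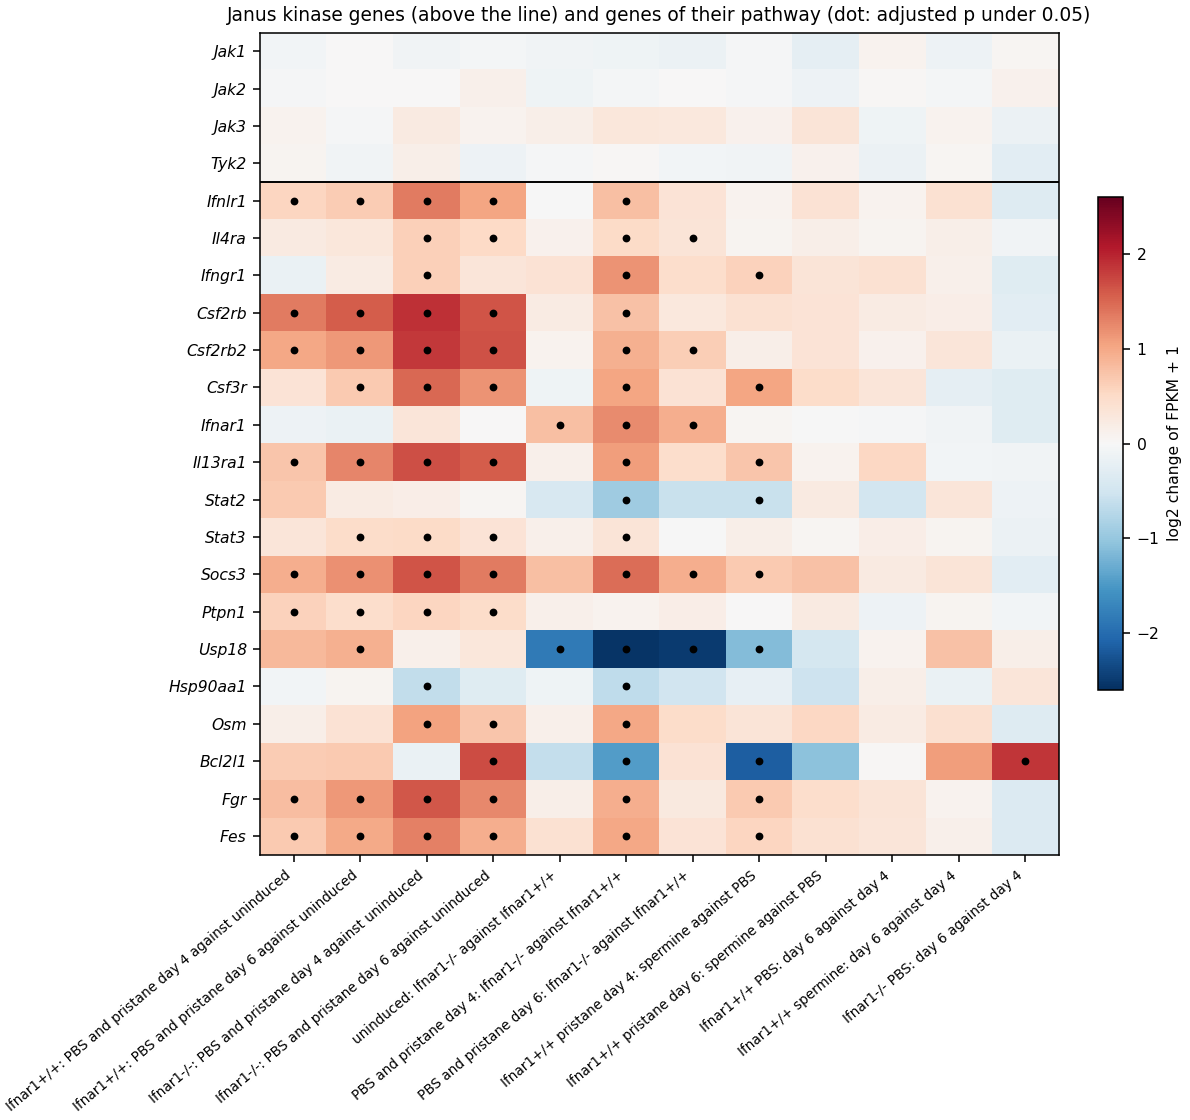
Log2 change of FPKM + 1 (colour scale, red for higher and blue for lower) of the 4 kinase genes, above the line, and of 18 named pathway genes in 12 comparisons, with a dot where limma called the gene. The kinase rows are pale and hold no dot. Csf2rb (1.90) and Socs3 (1.63) are deep red on day 4 against uninduced mice of the Ifnar1-/- label. The 18 were picked among called genes and the kinases by name, so that choice set the difference between them. Members of the lists that were not called are not shown.

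Of the 7 STAT genes, 1 was higher and 1 lower in day 4 mice labelled Ifnar1-/- than in Ifnar1+/+ PBS mice, where 18.5% of all genes were called. Stat3, the factor used by the interleukin 6 family, averaged 12.5 ± 1.31 FPKM and 9.79 ± 1.16 FPKM in these groups (0.33 ± 0.09, limma, adjusted p = 0.0121), and the call ended without the libraries of low mitochondrial share (0.22, adjusted p = 0.218). Stat2, part of the interferon-activated complex ISGF3, averaged 5.11 ± 1.87 FPKM and 10.6 ± 3.22 FPKM (-0.92 ± 0.19, adjusted p = 0.00069), and its call ended under fixed totals (-0.32, adjusted p = 0.254, without hemoglobin and -0.03, adjusted p = 0.914, with it).

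Socs3, the feedback inhibitor that binds JAK1, JAK2 and TYK2 and the gp130 receptor, was 1 of 6 SOCS genes that rose in day 4 mice labelled Ifnar1-/- against uninduced ones, with 0 falling and 8.12% of all genes called. It averaged 37.4 ± 4.61 FPKM on day 4, against 11.6 FPKM uninduced, a change of 1.63 ± 0.22 (limma, adjusted p = 1.34e-06). Against 13.2 ± 3.13 FPKM in day 4 Ifnar1+/+ PBS mice the difference was 1.46 ± 0.19 (adjusted p = 6.11e-07), and 2.11 and 2.43 under the fixed totals without and with hemoglobin. In that comparison, where 18.5% of all genes were called, 1 SOCS gene was higher and 1 lower. The lower one was Socs7 (-0.36 ± 0.13, adjusted p = 0.0382), named after its value was seen. After spermine on day 4, Socs3 averaged 21.4 ± 1.81 FPKM, 0.68 ± 0.18 above PBS mice (adjusted p = 0.00824), and the call ended without the libraries of low mitochondrial share (0.43, adjusted p = 0.244). In Ifnar1+/+ PBS mice it was 0.95 ± 0.22 above uninduced mice on day 4 (adjusted p = 0.0104), a call that ended under both fixed totals.

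Among 6 phosphatase genes, Ptpn1, whose product removes phosphate from JAK2 and TYK2, was called higher on day 4 than in uninduced mice under both labels. Under the Ifnar1-/- label it averaged 26.2 FPKM on day 4 and 17.6 FPKM uninduced, a change of 0.56 (limma, adjusted p = 0.00543), and the call was lost without uninduced mouse 3 (0.47, adjusted p = 0.0738). In Ifnar1+/+ PBS mice the change was 0.60, and the call was lost under the fixed totals without and with hemoglobin (0.27 and 0.29, adjusted p = 0.495 and 0.711). It was also lost in a fit of only the compared groups (adjusted p = 0.185) and without uninduced mouse 1 (0.54, adjusted p = 0.0819) or mouse 2 (0.48, adjusted p = 0.0971). Usp18, an interferon-induced inhibitor that blocks JAK1 at IFNAR2, was the called member of the 10 other negative regulators. It averaged 0.574 ± 0.651 FPKM in mice labelled Ifnar1-/- and 8.12 ± 2.83 FPKM in Ifnar1+/+ PBS mice on day 4 (-2.55 ± 0.24, adjusted p = 4.19e-09), and 0.693 ± 0.456 and 8.69 ± 3.39 FPKM on day 6 (-2.48 ± 0.24, adjusted p = 1.17e-08). After spermine on day 4 it averaged 3.14 ± 1.39 FPKM, below the PBS mice by a change of -1.14 ± 0.23 (adjusted p = 0.000765), and the call ended with hemoglobin in the total (-0.29, adjusted p = 0.235). Usp18 is counted among the interferon-stimulated genes too. Of that list, 25 of 25 on day 4 and 24 of 25 on day 6 were lower under the Ifnar1-/- label than in Ifnar1+/+ PBS mice, where 18.5% and 3.2% of all genes were called. On day 4, 8 of 25 were lower after spermine than after PBS, where 9.13% of all genes were called.

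Of 5 adaptor and chaperone genes, 2 were lower in day 4 mice labelled Ifnar1-/- than in Ifnar1+/+ PBS mice, where 18.5% of all genes were called. Hsp90aa1, a chaperone that holds kinases in shape, averaged 15.8 FPKM and 26.3 FPKM (-0.67 ± 0.16, limma, adjusted p = 0.00332), but it turned to 0.32 with a fixed total that includes hemoglobin, and the call ended without the libraries of low mitochondrial share (-0.40, adjusted p = 0.212). Of 14 genes that STATs are known to switch on early, 4 rose and 0 fell in day 4 mice labelled Ifnar1-/- against uninduced ones, where 8.12% of all genes were called. Bcl2l1, a survival gene that STAT5 induces and red-cell precursors use, was lower after spermine than after PBS on day 4, at 9.71 and 52.9 FPKM (-2.14 ± 0.39, adjusted p = 0.000155), beside the erythroid marker sums given above, whose part was not tested.

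Of 15 other cytoplasmic tyrosine kinases, 4 rose, 1 fell and 10 were not called in day 4 mice labelled Ifnar1-/- against uninduced mice, where 8.12% of all genes were called. Against Ifnar1+/+ PBS mice 4 were higher, 0 lower and 11 not called, where 18.5% of all genes were called. The median change of the 15 was -0.01 and 0.045 in these comparisons, and that of all genes -0.03 and 0.0021. No test compared them with the Janus kinases. Fgr, a Src-family kinase of myeloid cells, averaged 37.2 FPKM on day 4 in those mice, 11.6 FPKM uninduced and 19.2 FPKM in Ifnar1+/+ PBS mice. It was 1.61 ± 0.18 above uninduced mice (limma, adjusted p = 4.8e-08) and 0.95 ± 0.15 above Ifnar1+/+ PBS mice (adjusted p = 2.43e-05). Fes, also a myeloid kinase, was 1.30 ± 0.18 (adjusted p = 1.35e-06) and 1.01 ± 0.15 (adjusted p = 5.57e-06) above the same groups. The neutrophil marker sum had medians of 7929 FPKM in those day 4 mice, 880 FPKM in uninduced mice of the label and 1652 FPKM in Ifnar1+/+ PBS mice, and its part was not tested.

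Spermine against PBS on day 6 and both day comparisons within Ifnar1+/+ mice called no gene of the receptor, STAT, SOCS, phosphatase or tyrosine kinase lists. Of all genes, 0.0423% were called for spermine on day 6, 0.473% for the days after PBS and 0.617% for the days after spermine. With so few genes called at all, the absence of calls says little about these lists. In Ifnar1+/+ PBS mice the named pathway calls against uninduced mice depended on the scale. The counts that follow cover named genes only, and leave out other called genes of the lists. Of 8 named calls on day 4, 0 stayed called under either fixed total. Of 11 on day 6, 1 stayed without hemoglobin in the total, that of Csf2rb, and 0 with it. On day 4 of mice labelled Ifnar1-/- against uninduced mice, 11 of 14 named calls stayed without hemoglobin and 13 of 14 with it. On day 6 of that label, 5 of 13 stayed without hemoglobin and 4 of 13 with it. All genes called under that label were 961 on day 4 and 1391 on day 6 as deposited. With hemoglobin in the total they were 2277 and 331. Between genotypes on day 4, 15 and 14 of 17 stayed, where 58.3% and 74.7% of all genes were called under these totals. On day 6, 2 and 1 of 5 stayed, where all genes called went from 379 as deposited to 85 with hemoglobin. Of 9 named calls for spermine on day 4, 8 and 7 stayed under the fixed totals, but 3 stayed without the libraries of low mitochondrial share, those of Csf3r, Usp18 and Bcl2l1.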

How the data were processed

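Values are the table of FPKM deposited by the authors, for 54532 genes in 40 libraries of poly-T-selected mRNA per the labels' protocols. The submitters' processing notes list CASAVA 1.8, fastp, HISAT2 2.0.5, featureCounts 1.5.0-p3, DESeq2 1.20.0 and GRCm38, with no role or order stated for any of them. The deposited FPKM carry a median-of-ratios scaling, and whole reads were recovered for 100% of nonzero values within 0.001 read. No per-sample column was left unused (0). Groups come from the labels, and nothing says that mice were handled in separate batches. Gene spans are GENCODE M21, and promoters are RefSeq on GRCm38.p6.

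The 11829 genes that reached 1 FPKM in 3 or more libraries were fitted as log2(FPKM + 1) in 1 model of 8 groups with limma 3.58.1 (lmFit, contrasts.fit, eBayes with trend) in R 4.3.3, with Benjamini-Hochberg adjustment per comparison. Fold changes are on that scale and understate those of low genes. The script was tested on simulated data. The 4 genes and all lists were chosen with earlier results of these data known. Named are the 4 kinases, 18 genes of the pathway lists, and the 4 genes of highest r for each kinase, without predicted genes and receptor or antibody segments. The 18 were picked from up to 4 called members of a list in a comparison by smallest p. Not every such member was named. Insl3 was added for its overlap.

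Alternatives were a pseudocount of 0.1, no filter, fixed totals with and without hemoglobin, a fit restricted to the compared groups, the replicate number as a block, voom on recovered reads, leaving out each library, and leaving out the 7 libraries of low mitochondrial share. Same-numbered mice of different groups did not deviate together in every pair in any of 12 comparisons. The numbers were not taken to pair mice, though this cannot exclude pairing. Figures and summaries used matplotlib 3.10.9, numpy 2.4.6 and pandas 2.3.3 under Python 3.11.15.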

Additional observations from a re-analysis of the deposited data

Results flagged for a closer look

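In 24 groups of 5 or 6 mice (4 genes in 6 groups), the gap between an extreme mouse and its nearest neighbour was set against the range of the group by Dixon's test, and 4 mice stood apart. Chance flags about 1 group in 20. Mouse 1 of day 6 labelled Ifnar1-/- had the lowest Jak1 of its group, at 33.018 FPKM, where the next was 38.801 and the highest 40.195 FPKM, and hemoglobin took 60.1% of its fragments. Mouse 2 of the same group had the lowest Jak3, at 8.6631 FPKM, where the next was 10.485 and the highest 11.207 FPKM. Mouse 2 of day 4 Ifnar1+/+ PBS had the highest Jak3 of its group, at 12.588 FPKM, where the next was 9.3679 and the lowest 7.9592 FPKM. Mouse 6 of day 6 Ifnar1+/+ PBS, a library of low mitochondrial share, had the highest Jak2, at 18.044 FPKM, where the next was 14.253 and the lowest 13.163 FPKM.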

How the results depend on the processing

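With the replicate block, a fit restricted to the compared groups, no expression filter or a pseudocount of 0.1, all 64 kinase values (48 comparisons and 16 differences between comparisons) kept their sign and 0 were called. In 0 of 12 comparisons did every same-numbered pair of mice correlate over 0.1 (range -0.36 to 0.69), and the block moved no kinase call. This rule cannot exclude pairing: for day 6 against day 4 after spermine, the same-numbered pairs ran from 0.05 to 0.69. Under voom 1 value changed sign, that of Jak2 in Ifnar1+/+ mice on day 6 against uninduced ones, at -7e-04, and 0 were called. Without the 7 low-mitochondrial libraries 13 changed sign, none above 0.21 in size, and 0 were called. Over 800 values with 1 library left out, 60 changed sign, none above 0.13 in size, and 0 were called.

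The fixed totals moved the calls of the 4 kinases from 0 to 4 between the genotypes on day 4, to 4 for spermine on day 4 and to 4 for day 6 against day 4 in mice labelled Ifnar1-/-, with or without hemoglobin. For the difference of the genotype effects they gave 3 without hemoglobin and 4 with it, and for spermine on day 6 they gave 2 with hemoglobin. Signs changed for 28 of 64 values without hemoglobin and for 25 with it.

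Values of other sign follow, without hemoglobin first and with it second. In Ifnar1+/+ PBS mice on day 4 against uninduced ones, Jak3 stood at -0.21 and -0.19 and Tyk2 at -0.22 and -0.20. On day 6, Jak1 stood at -0.25 and -0.22 and Jak2 at -0.24 and -0.22. In mice labelled Ifnar1-/-, Jak1 stood at 0.091 and 0.57 on day 4, and on day 6 Jak2 at -0.32 and -0.22 and Jak3 at -0.35 and -0.25. Between uninduced genotypes the values without hemoglobin were 0.071 for Jak1, 0.048 for Jak2 and 0.11 for Tyk2. Between genotypes on day 4, Jak1 stood at 0.57 and 0.90 and Jak2 at 0.60 and 0.91, and on day 6 Jak2 at -0.036 and -0.082. For spermine on day 4, Jak1 stood at 0.71 and 0.99, Jak2 at 0.67 and 0.94 and Tyk2 at 0.54 and 0.79, and on day 6 Jak1 at 0.17 and 0.39 and Jak2 at 0.26 and 0.46. For day 6 against day 4 after spermine, Jak3 stood at -0.14 and -0.21 and Tyk2 at -0.16 and -0.23. In mice labelled Ifnar1-/- the same days gave Jak1 -0.61 and -0.99 and Jak2 -0.52 and -0.88. For the difference of the day 4 changes, Jak1 stood at 0.50 and 0.96, and for that of the day 6 changes Jak2 at -0.084 and -0.0022 and Jak3 at -0.093 and -0.014. For the difference of the spermine effects, Jak3 stood at -0.089 and -0.16 and Tyk2 at -0.076 and -0.15, and for that of the genotype effects Jak2 at -0.63 and -0.99. Of the named pathway genes, Stat3 stood at -0.09 without hemoglobin in mice labelled Ifnar1-/- on day 6 against uninduced ones. Stat2 stood at 0.10 and 0.36 for spermine on day 4. Hsp90aa1 stood at 0.0032 and 0.32 between genotypes on day 4, and at 0.0042 with hemoglobin on day 4 against uninduced mice of the Ifnar1-/- label. Under these totals the median of all genes stood at 0.46 and 0.69 between genotypes on day 4, and the cause of that shift was not tested.

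Without those 7 libraries, the values of other sign were 0.049 for Jak3 in Ifnar1+/+ mice on day 6, 0.0056, 0.057 and 0.0069 for Jak1, Jak2 and Tyk2 between uninduced genotypes, and 0.13 and 0.11 for Jak1 and Jak2 between genotypes on day 4. For spermine on day 4 they were 0.21, 0.13 and -0.025 for Jak1, Jak2 and Jak3. For the difference of the day 4 changes they were 0.12 for Jak1 and -0.060 for Jak3, and for that of the genotype effects -0.028 for Jak2 and 0.10 for Jak3. The cause was not tested.

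With single mice left out, values that crossed 0 ran as follows. In Ifnar1+/+ PBS mice on day 4 they ran from -0.19 to 0.031 for Jak1, -0.15 to 0.13 for Jak2, -0.054 to 0.17 for Jak3 and -0.045 to 0.13 for Tyk2, and on day 6 from -0.11 to 0.12 for Jak1, -0.11 to 0.17 for Jak2 and -0.17 to 0.049 for Jak3. In mice labelled Ifnar1-/- they ran from -0.044 to 0.095 for Jak2 on day 4 and -0.086 to 0.0029 for Jak1 on day 6. Between genotypes they ran from -0.22 to 0.0056 for Jak1, -0.23 to 0.057 for Jak2 and -0.15 to 0.027 for Tyk2 uninduced, -0.0084 to 0.065 for Tyk2 on day 4 and -0.035 to 0.082 for Jak2 on day 6. For spermine on day 4 they ran from -0.087 to 0.047 for Jak1, -0.086 to 0.017 for Jak2 and -0.15 to 0.021 for Tyk2. Day 6 against day 4 ran from -0.020 to 0.092 for Jak2 after PBS, and after spermine from -0.11 to 0.0099 for Jak2, -0.049 to 0.17 for Jak3 and -0.061 to 0.12 for Tyk2. The difference of the day 4 changes ran from -0.12 to 0.10 for Jak1 and -0.11 to 0.17 for Jak2, and that of the day 6 changes from -0.16 to 0.062 for Jak1, -0.042 to 0.24 for Jak2 and -0.098 to 0.078 for Tyk2. The difference of the genotype effects ran from -0.10 to 0.013 for Jak1 and -0.11 to 0.036 for Jak3.

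Over all genes tested, the number called moved by more than 1.5 times with the setting. Given as deposited, with the lowest and highest over all alternatives after it, the count was 248 (16 to 346) for day 4 and 966 (58 to 1089) for day 6 against uninduced Ifnar1+/+ mice. Under the Ifnar1-/- label it was 961 (700 to 2277) and 1391 (331 to 2410). Between genotypes it was 48 (0 to 139) uninduced, 2187 (815 to 8836) on day 4 and 379 (85 to 549) on day 6, and for spermine 1080 (495 to 9555) on day 4 and 5 (0 to 3725) on day 6. Day 6 against day 4 gave 56 (0 to 339) after PBS, 73 (21 to 258) after spermine and 735 (436 to 9135) under the Ifnar1-/- label. The cause was not tested.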
